A study of Mus musculus with 13 samples.

Results

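Tesc and Trp53i11 are a pair of genes with high values in endothelial tip samples on these arrays. They are 2 of the 33572 genes, or probes without a gene name, that the arrays of the series hold, and each is read by 1 probe. They were selected on the tip minus stalk difference of their log2 ratios on these same arrays, so every difference that involves tip samples is given as a description, with no p-value. The probes were found by gene symbol, from the RefSeq accession of the probe or the symbol in its description. Both probes stood among the 32030 genes that could be fitted. No stricter or looser threshold was part of the choice.

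The series compared mouse retina samples of 3 kinds, with 6 labelled tip, 4 labelled stalk and 3 labelled as controls without vasculature, called nonvascular retina below. Each sample, labelled with the red dye Cy5, shared an array with Universal Mouse Reference RNA, a commercial pool of RNA labelled with the green dye Cy3, so every value below is a log2 ratio of sample over reference. No array had the dyes swapped. The labels name no allele, treatment, strain or age, and the groups are known here only by those names. How the cells were collected, and from which or how many animals, is not given in the sources used here, so p-values measure only the spread between these samples, which may be technical.

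At the front of a growing vessel sprout, tip cells extend filopodia, while stalk cells follow, divide and form the lumen. Tesc encodes tescalcin, a calcium-binding protein with EF-hand domains that belongs to the calcineurin homologous proteins, a family related to the regulatory subunit of the phosphatase calcineurin. Trp53i11 encodes p53-induced protein 11, the product of a gene named for its induction by the tumour suppressor p53, a transcription factor of the stress response.

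Upstream sequence of both genes is shown because the pair was high in the same samples. The windows are the 250 bases before the start of a transcript in RefSeq (build GRCm38.p6), on the plus strand, at chr5:118027493-118027742 for Tesc and chr2:93187298-93187547 for Trp53i11. Other Trp53i11 transcripts start inside its window, so only the 51 bases before the first of them, chr2:93187298-93187348, are printed, while counts cover the whole window. Each sequence runs 5′ to 3′, and capitals mark the GC box, GGGCGG on either strand.
Tesc: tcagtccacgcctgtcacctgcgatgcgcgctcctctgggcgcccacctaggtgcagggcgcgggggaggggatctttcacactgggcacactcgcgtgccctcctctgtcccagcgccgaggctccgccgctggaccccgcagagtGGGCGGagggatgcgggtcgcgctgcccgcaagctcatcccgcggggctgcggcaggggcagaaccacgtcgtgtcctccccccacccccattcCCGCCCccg
Trp53i11: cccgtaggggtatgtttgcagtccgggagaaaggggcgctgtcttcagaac
Both windows were rich in G and C. The Tesc window was 73.2% G and C with 26 CpG pairs, above 94.3% and 90.4% of the 32841 mouse windows of this length, and the Trp53i11 window was 71.2% with 22 CpG pairs, above 92.2% and 85.2%. The Tesc window held 2 GC boxes and that of Trp53i11 held 1, beyond the printed stretch, a motif found in 32.7% of all windows. The hypoxia core ACGTG occurred 1 time in the Tesc window and 0 times in that of Trp53i11, against 16.6% of all windows with a match, and GCGTG occurred 2 times and 1 time, against 28.2%. Neither window held a TATA box (TATAAA, 12.4% of windows), a CCAAT box (CCAAT, 33.9%), an E-box (CACGTG, 6.0%), an AP-1 site (TGACTCA, 4.5%), an RBPJ site (TGGGAA, 21.6%) or a p53 half-site (7.1%). All motifs were searched on both strands, and ACGTG overlaps the E-box. These are matches of letters within these windows only.

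Endothelial genes were high on tip and stalk arrays and low on nonvascular arrays. The mean log2 ratio of 20 endothelial genes was 2.52 to 2.84 on tip arrays, 2.96 to 3.14 on stalk arrays and 0.15 to 0.41 on nonvascular arrays, and Cdh5, the endothelial cadherin, averaged 4.08 ± 0.33 in tip (SD, n = 6), 4.21 ± 0.17 in stalk (n = 4) and 0.45 ± 0.20 in nonvascular retina (n = 3). The median red signal above background was 105.2 to 291.6 intensity units on tip arrays, 98.1 to 140.8 on stalk arrays and 166.1 to 281.6 on nonvascular arrays. The stalk arrays were scanned first, then the tip and nonvascular arrays, with tip replicate 5 on another day. Each array lay on its own slide, so the groups and the order of scanning cannot be told apart. Nonvascular replicate 3 stood apart from the other nonvascular arrays in a part of the glial genes and in some genes of other lists, as described with the Tesc values it touches.

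Tesc was higher on all 6 tip arrays than on any stalk array. The tip ratios were 1.28, 1.08, 0.94, 1.02, 0.46 and 0.92 in replicates 1 to 6, and the stalk ratios were -0.93, -0.75, -1.07 and -0.68 in replicates 1 to 4. The mean was 0.95 ± 0.28 in tip and -0.86 ± 0.18 in stalk. All 6 tip values thus lay above the reference pool and all 4 stalk values below it. The difference was 1.81 ± 0.36 on the log2 scale (SE), 3.50-fold, rank 3 of the 32030 genes counted from the highest. This and the later ranks of differences keep the sign, so genes lower in tip come last. In a fit of the 2 groups alone the difference was the same and its SE was 0.14, since the common fit also takes in the spread of the nonvascular arrays.

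Trp53i11 was likewise higher on every tip array than on any stalk array. Its tip ratios were 1.82, 2.16, 2.26, 1.68, 2.16 and 1.26, with a mean of 1.89 ± 0.38. Its stalk ratios were 0.32, 0.64, 0.15 and 0.25, with a mean of 0.34 ± 0.22. Unlike Tesc, it was above the reference pool in both groups. The difference was 1.55 ± 0.19 (SE), 2.93-fold, rank 6 of 32030. Over all genes, 5.48% had tip and stalk values that did not overlap and 1.47% were called higher in tip (limma, Benjamini-Hochberg adjusted p under 0.05), shares that are given for scale only, since this contrast chose the pair.

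**Figure D1:**
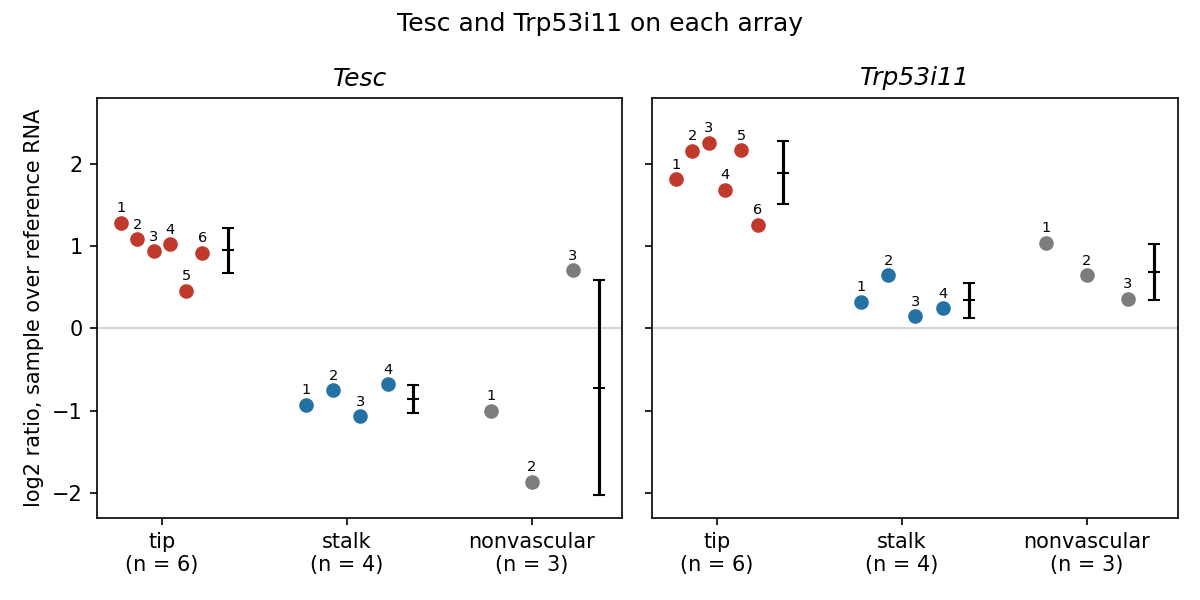
Log2 ratio of sample over reference RNA for Tesc (left) and Trp53i11 (right) on each of the 13 arrays, with replicate numbers beside the points and the group mean ± SD beside each group. The tip points lie above the stalk points in both panels, and nonvascular replicate 3 lies apart from the other nonvascular points for Tesc.

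The difference lay in the sample channel. The Tesc spot was 15.8 to 110 times its local background in red on tip arrays and 5.02 to 8.06 times on stalk arrays, while the green reference stayed at 9.06 to 10.4 times on all 13 arrays. The Trp53i11 spot was 5.87 to 38.5 times background in red on tip arrays and 2.58 to 4.87 times on stalk arrays, with green at 2.48 to 3.41 times. Both spots were well above background in both channels on every array, and none was saturated or marked as an outlier. Trp53i11 is therefore read nearer to background than Tesc: the error that the scanner software gives for its log10 ratio ran from 0.0779 to 0.2162, largest on stalk replicate 3, against 0.0514 to 0.0774 for Tesc. Tip replicates 5 and 6 were as dim overall as the stalk arrays, with median red signals of 113.6 and 105.2. They lay above every stalk array for both genes, but this contrast chose the pair, so it says nothing of the part of brightness.

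**Figure D2:**
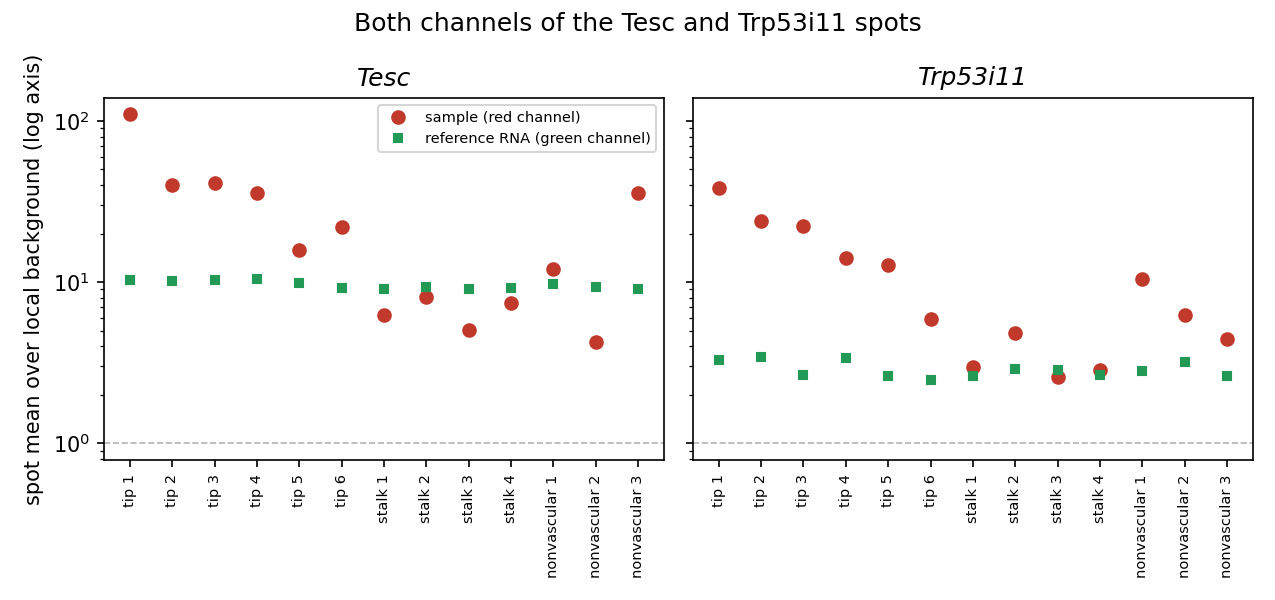
Mean spot signal over local background (log axis) of the Tesc and Trp53i11 spots on each array, with the sample in red circles and the reference RNA in green squares; the dashed line marks background. The green squares stay within 9.06 to 10.4 for Tesc and 2.48 to 3.41 for Trp53i11, while the red circles move between groups.

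The size of the tip excess depended on the processing for Trp53i11 more than for Tesc. Tesc ranged from 1.53 to 1.94 over 23 alternative settings and Trp53i11 from 1.34 to 1.99, and the sign held in all of them. The scanner software's own log ratios put Trp53i11 at 2.86 ± 0.32 in tip and 0.87 ± 0.36 in stalk, a difference of 1.99, and Tesc at 1.12 ± 0.28 and -0.82 ± 0.19, a difference of 1.94. With array brightness as a covariate both differences were at their lowest, 1.53 and 1.34. In that same setting 225 genes were called in all, against 893.

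**Figure D3:**
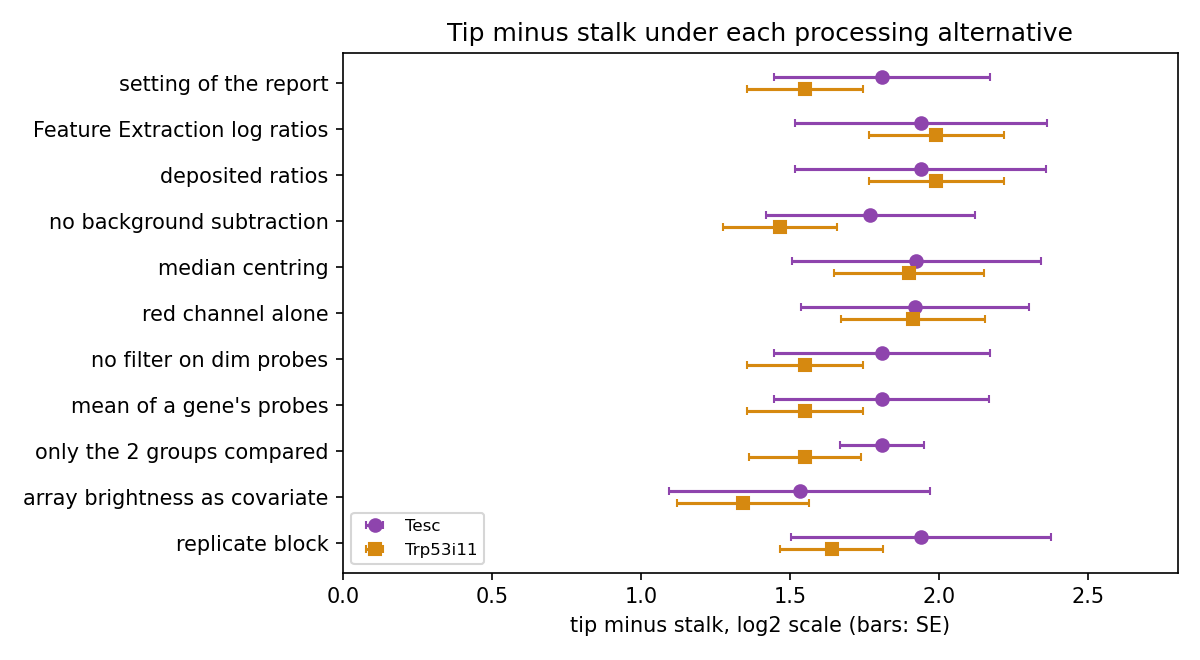
Tip minus stalk difference (log2 scale) of Tesc (circles) and Trp53i11 (squares) under the setting of the report and each processing alternative that keeps all arrays of the groups fitted, with bars for the SE. Every point lies above 1.3, between 1.34 and 1.99.

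Within the 6 tip arrays the genes did not rank the samples alike. Tesc was highest in replicate 1 and lowest in replicate 5, whereas Trp53i11 was highest in replicate 3 and lowest in replicate 6. Their correlation was -0.235 (Pearson's r, 2-sided exact permutation p = 0.675, adjusted p = 0.675 over 3 relations) and Spearman's rho was -0.143 (exact permutation p = 0.803, adjusted 0.803). Without the 2 arrays farthest from the median, r was 0.436. Array brightness went with Tesc at r = 0.711 (exact permutation p = 0.0903, adjusted p = 0.271) and rho = 0.714 (exact permutation p = 0.136, adjusted 0.408). It went with Trp53i11 at r = 0.312 (exact permutation p = 0.551, adjusted 0.675) and rho = 0.314 (exact permutation p = 0.564, adjusted 0.803). These r values became 0.394 and -0.119 without the 2 farthest arrays. With 6 arrays none of these passed its test.

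In nonvascular retina Tesc was spread more widely than in either vascular group. The 3 arrays gave -1.002, -1.866 and 0.704, a mean of -0.72 ± 1.31 and a range of 2.57 on the log2 scale, 5.94-fold. Replicate 3 lay within the tip range, replicate 1 lay within the stalk range and replicate 2 below it, so tip and nonvascular values overlapped. Tip minus nonvascular was 1.67 ± 0.40 (SE), 3.19-fold and rank 427 of 32030. This was 2.39, 5.22-fold, without nonvascular replicate 3 and 1.1, 2.14-fold, without replicate 2. Trp53i11 was steadier, at 1.04, 0.65 and 0.36, a mean of 0.68 ± 0.34. Its tip values lay above all 3 nonvascular values, and the difference was 1.21 ± 0.21 (SE), 2.31-fold and rank 785. Over all genes 27.8% had tip and nonvascular values that did not overlap, and 28.0% were called in either direction.

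Stalk against nonvascular retina is the comparison without tip arrays, although it shares the stalk arrays with the contrast that chose the genes. The groups overlapped for both genes, while 37.3% of all genes had no overlap. Neither gene passed its test there, where 29.8% of all genes did. Tesc differed by -0.14 ± 0.43 (SE, limma adjusted p = 0.86), with a 95% interval of -1.07 to 0.79. This interval spans stalk levels from 0.477 to 1.73 times those of nonvascular retina. It rests on a spread pooled over the 3 groups, while the Tesc SD was 1.31 in nonvascular retina and 0.18 in stalk. In a fit of these 2 groups alone the SE was 0.53, so the interval is likely too narrow. Trp53i11 differed by -0.34 ± 0.23 (SE, limma adjusted p = 0.314), with an interval of -0.84 to 0.16, or 0.558 to 1.11 times. Over the alternatives the adjusted p ran from 0.0996 to 0.985 for Tesc and from 0.176 to 0.922 for Trp53i11. Without nonvascular replicate 3 the Tesc difference turned to 0.58 (limma adjusted p = 0.0996), and without replicate 2 it was -0.71 (limma adjusted p = 0.195). By group means tip was highest for both genes, but its place above stalk follows from how the pair was chosen. For Tesc, nonvascular replicate 3 (0.704) lay above tip replicate 5 (0.46). Nonvascular retina and stalk could not be told from one another in either gene.

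The Tesc value of nonvascular replicate 3, a feature chosen after its values were seen, came with higher values of a part of the glial genes, and of some genes of other lists, on that array. It exceeded the higher of the other nonvascular arrays by 1.71, rank 63 of 31914 genes, whereas Trp53i11 was lower there by 0.68. Of all genes 0.8% were highest in replicate 3 by 1 or more on the log2 scale, against 5 of 10 retinal astrocyte genes, 2 of 10 Mueller glia genes, 4 of 20 tip cell markers, 3 of 19 hypoxia response genes, 1 of 20 endothelial genes and 0 of 14 ganglion cell genes. By any margin 33.4% of all genes were highest in replicate 3, against 7 of 10 astrocyte, 7 of 10 Mueller glia and 16 of 20 endothelial genes. So were 10 of 14 amacrine, horizontal and bipolar genes and 10 of 17 photoreceptor genes. The ganglion cell genes gave 2 of 14 and the microglia genes 3 of 14. The mean of the astrocyte genes was -0.37, -0.38 and 0.65 on nonvascular replicates 1 to 3, and 1.15 to 1.35 on tip and 1.16 to 1.31 on stalk arrays. The astrocyte genes Pdgfra, a growth factor receptor, at -1.18, -0.74 and 1.94, S100b, a calcium-binding protein, at 1.89, 2.22 and 4.45, and Slc1a3, a glutamate carrier, at 2.85, 2.31 and 4.61 moved in this way, and so did Rlbp1, a retinoid carrier of Mueller glia, at 1.97, 1.36 and 3.83. The astrocyte genes Pax2 (-0.17, -0.18 and -0.20), Gfap (-0.08, -0.06 and 0.05) and Aqp4 (0.36, 0.38 and 0.27) did not. Among the Mueller glia genes Clu, which encodes clusterin, was lowest in replicate 3, at 0.60, 0.77 and -0.09, and Hes1 (-0.61, -0.86 and -0.77) and Apoe (2.86, 3.40 and 3.37) lay within the range of the other arrays. Fewer cells of a type and less RNA per cell cannot be told apart in such samples, and the part of any of these lists in the Tesc value was not tested.

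**Figure D4:**
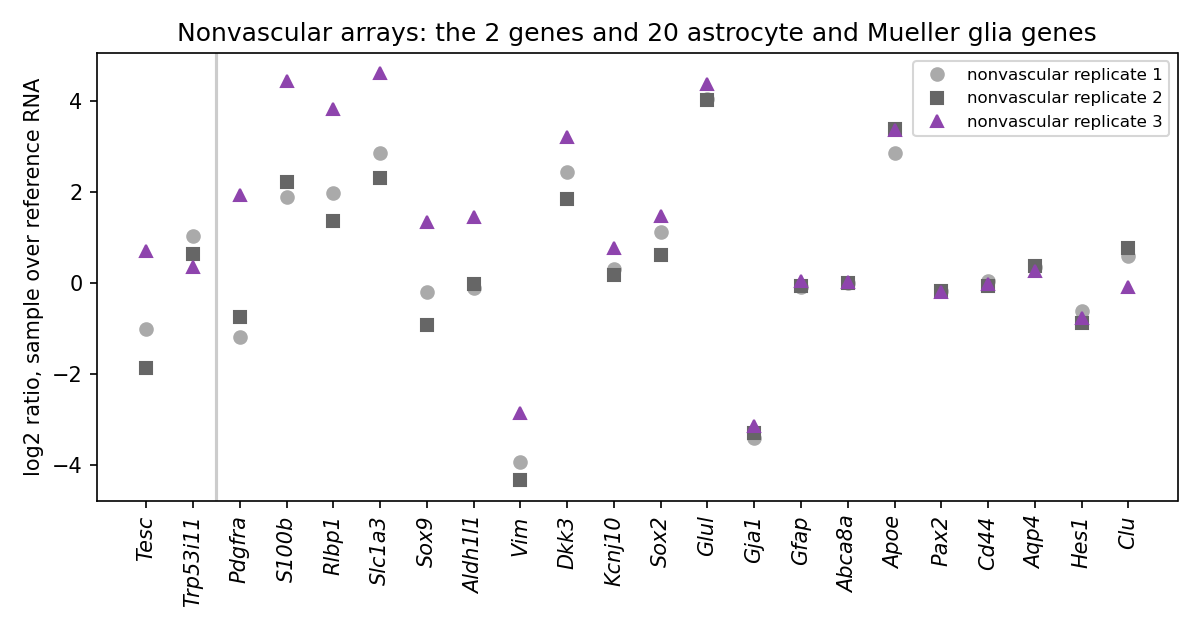
Log2 ratio of sample over reference RNA on the 3 nonvascular arrays for Tesc and Trp53i11 (left of the line) and for 20 astrocyte and Mueller glia genes, ordered by how far replicate 3 exceeds the higher of the others. Replicate 3 (triangles) is far above the others for Tesc and for the first glial genes, and below them for Trp53i11.

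Markers of other cell types also differed between tip and stalk arrays. Of all genes 1.47% were called higher and 1.32% lower in tip. Of the pericyte and smooth muscle genes 9 of 14 were called lower, with means of 0.49 to 0.74 on tip and 1.16 to 1.35 on stalk arrays. Of the endothelial genes 5 of 20 were called lower and 1 higher. The pericyte count was 5 with median centring, 3 with array brightness as a covariate and 5 with the replicate block. By limma the astrocyte genes gave 0 of 10 called (2.79% of all genes called in either direction) and the microglia genes 0 of 14, with 1 in each list lower at an unadjusted p under 0.05. The Mueller glia genes gave 0 of 10 higher and 1 lower, with 1 higher and 2 lower at an unadjusted p under 0.05. The ganglion cell genes gave 1 of 14 higher, with means of 0.29 to 0.68 on tip and -0.29 to 0.48 on stalk arrays. Among 17 photoreceptor genes 0 were called, with 0 at an unadjusted p under 0.05, and Crx and Opn1mw were not well above background on any stalk array. Of the hypoxia response genes 5 of 19 were called higher and 0 lower (1.47% and 1.32% of all genes). Their means were -1.49 to -1.26 on tip and -1.95 to -1.71 on stalk arrays. The count called higher was 2 with median centring, 2 with array brightness and 3 with the replicate block. The genes with the smallest p were Tpi1, a glycolytic enzyme, at 0.89 ± 0.10 (SE), P4ha1, a collagen hydroxylase, at 0.93 ± 0.12, and Pgk1, another glycolytic enzyme, at 0.73 ± 0.11, with limma adjusted p of 0.000617, 0.00154 and 0.00568. The part of any of these in the Tesc and Trp53i11 values was not tested.

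Among relatives and partners of Tesc, Chp1 was not called between tip and stalk, and 1 or 2 genes of each list were. Of 15 measured genes of calcineurin homologous proteins and the calcineurin pathway, 0 were called higher by limma and 1 lower (1.47% and 1.32% of all genes; 1 and 1 at an unadjusted p under 0.05), and their median difference was -0.04 against 0.00 over all genes. Chp1, the closest measured relative of Tesc, differed by -0.04 ± 0.06 (SE, limma adjusted p = 0.807). Nfatc4, a transcription factor that calcineurin activates, fell by 0.19 (SE 0.04, limma adjusted p = 0.0267), a call that was lost or turned in 11 of 23 alternatives. Of 9 sodium proton exchange genes 1 fell, Slc9a3r2, a scaffold of exchangers, by 0.98 (SE 0.13, limma adjusted p = 0.00156). Of 24 other EF-hand sensors 2 rose, S100a10 by 0.47 ± 0.08 (SE, limma adjusted p = 0.00799) and Ncs1, a neuronal calcium sensor, by 0.73 ± 0.14 (limma adjusted p = 0.015), calls that were lost in 3 and 6 of the 23 alternatives.

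Against nonvascular retina several of these genes were called, although Tesc itself overlapped there. Chp1 rose by 0.96 ± 0.07 (SE, limma adjusted p = 4e-07) in tip and by 0.99 ± 0.07 (limma adjusted p = 5.26e-07) in stalk. The catalytic calcineurin subunit gene Ppp3cb fell by 1.39 (SE 0.08, limma adjusted p = 6.61e-08) in tip and by 1.55 (SE 0.09, limma adjusted p = 4.71e-08) in stalk, and Ppp3ca by 0.99 (SE 0.12, limma adjusted p = 2.67e-05) and 0.79 (SE 0.13, limma adjusted p = 0.000339). In stalk Ppp3cc, a further catalytic subunit gene, fell by 0.99 (SE 0.13, limma adjusted p = 7.28e-05). Over the 23 alternatives the tip difference ran from 0.471 to 1.01 for Chp1 and from -1.657 to -0.623 for Ppp3cb, and both kept their calls. In all, 4 of the 15 genes were called higher and 3 lower in tip (11.1% and 16.8% of all genes), and 5 and 3 in stalk (11.3% and 18.6%). These 2 comparisons share the nonvascular arrays. Of the 9 exchange genes 2 were called higher and 2 lower in tip, and 3 and 2 in stalk. In tip, Slc9a3r1, another scaffold, rose by 1.04 ± 0.10 (SE, limma adjusted p = 4.92e-06), Ezr, which encodes ezrin, rose by 1.78 ± 0.25 (limma adjusted p = 0.000127), and Slc9b2, an exchanger, fell by 1.33 (SE 0.16, limma adjusted p = 4.25e-05). In stalk, Slc9a3r1 rose by 0.87 ± 0.11 (SE, limma adjusted p = 4.03e-05), Slc9a3r2 rose by 1.20 ± 0.15 (limma adjusted p = 4.61e-05) and Slc9b2 fell by 1.40 (SE 0.18, limma adjusted p = 4.98e-05). Slc9b2 was well above background on 4 tip and 2 stalk arrays.

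Of the 24 EF-hand sensors 5 were called higher and 12 lower in tip than in nonvascular retina, and 5 and 13 in stalk. Of all genes 11.1% were called higher and 16.8% lower in tip, and 11.3% and 18.6% in stalk. The neuronal sensors Vsnl1 and Hpcal1 fell by 1.07 (SE 0.07, limma adjusted p = 1.63e-07) and 1.59 (SE 0.14, limma adjusted p = 2.13e-06) in tip and by 1.14 (SE 0.07, limma adjusted p = 1.72e-07) and 1.77 (SE 0.15, limma adjusted p = 1.65e-06) in stalk. Cib2 fell by 1.26 (SE 0.11, limma adjusted p = 2.65e-06) in tip, and S100a11 rose by 1.55 ± 0.12 (SE, limma adjusted p = 3.02e-06) in stalk.

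Of p53 and its regulators 0 of 16 were called by limma between tip and stalk, with 3 higher and 1 lower at an unadjusted p under 0.05. Trp53, the gene of p53, differed by 0.19 ± 0.05 (SE, limma adjusted p = 0.0695) and was called in 1 of 23 alternatives, without tip replicate 6, at 0.21 (limma adjusted p = 0.042). Mdm2, which encodes the ligase that degrades p53, differed by 0.25 ± 0.16 (limma adjusted p = 0.45). Of 43 genes that p53 induces, 3 rose and 1 fell (1.47% and 1.32% of all genes), with a median difference of 0.14 against 0.00 over all genes. The count that rose was 0 with median centring, 1 with array brightness and 6 without tip replicate 6. Plk2, a kinase, rose by 0.81 ± 0.11 (SE, limma adjusted p = 0.00156), Phlda3, an inhibitor of Akt, by 0.50 ± 0.09 (limma adjusted p = 0.0109) and Ier3, an early response gene, by 1.28 ± 0.23 (limma adjusted p = 0.0114), while Prodh, proline dehydrogenase, fell by 0.57 (SE 0.10, limma adjusted p = 0.0102). Cdkn1a, the cell cycle inhibitor p21, was not called, at 0.42 ± 0.19 (limma adjusted p = 0.265). The calls of Phlda3, Ier3 and Prodh were lost in 3, 2 and 3 of the 23 alternatives and that of Plk2 in 1.

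**Figure D5:**
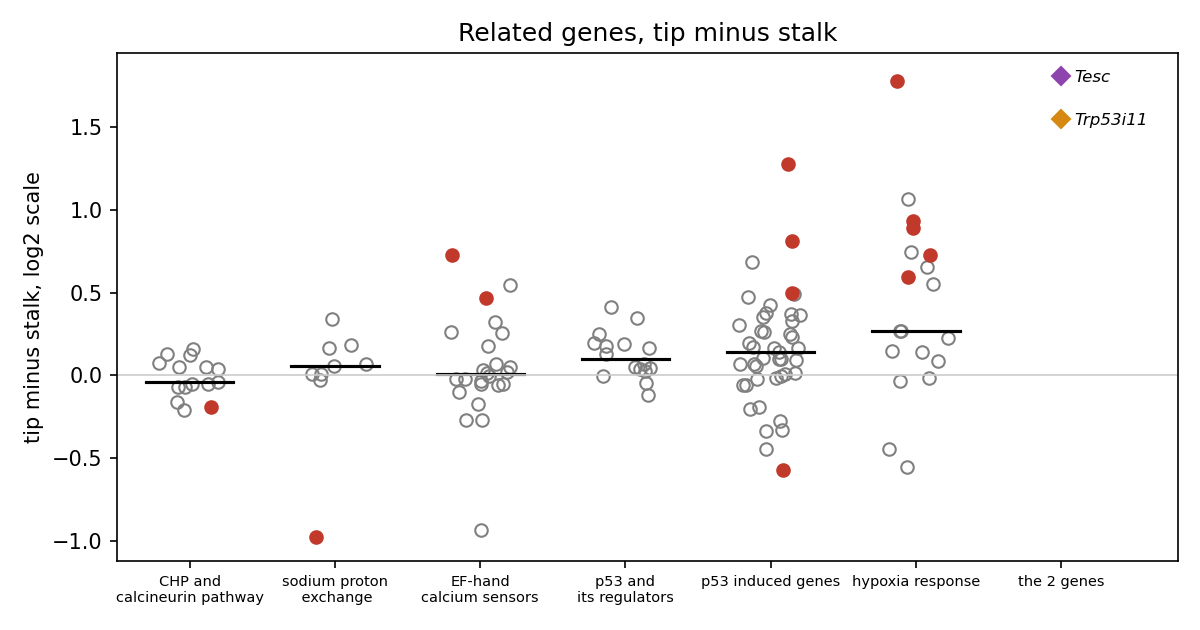
Tip minus stalk difference (log2 scale) of each measured gene of 6 lists, with called genes filled, other genes open and a bar at each list's median, beside Tesc and Trp53i11 (diamonds). Tesc lies at 1.81 and Trp53i11 at 1.55, the difference on which they were chosen. Medians of the calcineurin, exchanger, EF-hand and p53 lists run from -0.04 to 0.14, with Ier3 at 1.28.

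Against nonvascular retina, 16 of the 43 p53 induced genes were called higher in tip, where 11.1% of all genes were, and 8 lower, near the 16.8% of all genes. In stalk 10 were called higher and 10 lower, where 11.3% and 18.6% of all genes were. Such shares, here and for the other lists, cover 32030 genes, of which 16543 are named, whereas every listed gene is named. They are given for scale only, and an excess of a list over named genes was not tested. Pmaip1, a promoter of cell death, rose by 3.11 ± 0.18 (SE, limma adjusted p = 8.27e-08) in tip and 2.76 ± 0.20 (limma adjusted p = 3.75e-07) in stalk, and Cdkn1a fell by 1.09 (SE 0.21, limma adjusted p = 0.00144) and 1.51 (SE 0.23, limma adjusted p = 0.00019). Prodh rose by 1.80 ± 0.11 (SE, limma adjusted p = 1.01e-07) and 2.37 ± 0.12 (limma adjusted p = 2.19e-08). Of the 16 regulators 3 were called higher and 4 lower in tip, and 2 and 5 in stalk. Ppp1r13b, a p53 binding partner, fell by 1.06 (SE 0.09, limma adjusted p = 2.22e-06) in tip and 1.23 (SE 0.10, limma adjusted p = 1.19e-06) in stalk, and Trp53bp1, a DNA damage response protein, by 0.67 (SE 0.12, limma adjusted p = 0.000679) and 1.09 (SE 0.13, limma adjusted p = 2.34e-05). Over the 23 alternatives the tip difference ran from -1.295 to -0.514 for Ppp1r13b and from -0.896 to -0.362 for Trp53bp1. Both kept their calls. Chek1, a checkpoint kinase, rose by 0.64 ± 0.13 (SE, limma adjusted p = 0.00191) in tip, and Trp73, a relative of p53, fell by 0.35 (SE 0.07, limma adjusted p = 0.00152) in stalk, a call lost in 2 of 23 alternatives. Trp53 fell by 0.20 (SE 0.06, limma adjusted p = 0.0219) in stalk, a call lost or turned in 10 of 23 alternatives.

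The genes with values most like those of each gene were found by the root mean square distance between log2 ratios over the 13 arrays, each gene centred on its own mean, among 15805 named genes. For Tesc they were Ier3 (distance 0.437), Col2a1, a collagen (0.459), Cxcr4, a chemokine receptor (0.472), Igfbp2, a binding protein of insulin-like growth factors (0.487), and Crot, a carnitine acyltransferase (0.510). All 5 were highest in replicate 3 among the nonvascular arrays, as Tesc was, and Cxcr4 read -0.40, -0.85 and 0.20 there. The distance takes in that array, so the choice of these genes favoured this shared trait. For Trp53i11 they were Chst1, a sulfotransferase (0.357), P4ha1 (0.378), Me1, malic enzyme (0.381), Appl2, an adaptor protein (0.397), and Irf8, a transcription factor (0.404). Chst1 averaged 0.25 ± 0.15 in tip and -1.45 ± 0.12 in stalk. Trp53i11 ranked 54 for Tesc, at a distance of 0.714, and Tesc ranked 2064 for Trp53i11. The lists themselves shifted with the processing: without nonvascular replicate 3, 3 of the 5 genes nearest to Tesc were the same, and with the red channel alone 1 of the 5 nearest to Trp53i11 was.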

How the data were processed

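RNA from 13 mouse retina samples was measured on 2-colour Agilent arrays. Per the labels, RNA was extracted with a PicoPure kit and amplified from low input. Per the file headers, Feature Extraction 8.5.1.1 gave each spot's mean intensity and local background intensity, not normalized, and a log10 ratio of background-subtracted, dye-normalized signals with an error (used as a score). The authors' deposited values are linear ratios of red over green, equal for both genes on all 13 arrays to the antilog of that log10 ratio within 0.001.

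Log2 ratios were computed in limma 3.58.1 under R 4.3.3, with the package data.table at version 1.17.8, from mean and background intensities with normexp (offset 50) and loess, control spots at weight 0. Of 43790 spots, 41534 were not controls and held 41174 probes. Outlier-flagged spots were set to missing, repeated spots averaged, the brightest probe kept per gene, and genes required to be well above background in red on at least 3 arrays and to have at least 2 values in each group. RefSeq names (GRCm38.p6) were matched for 22072 probes by their own accession, 142 by another accession and 1091 by description; 17869 had none. Array coordinates are not used here, since no build is named.

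One limma fit with 3 group means covered all 32030 genes, 16543 of them named, with Benjamini-Hochberg adjustment; called means an adjusted p under 0.05. On simulated data for stalk minus nonvascular (32030 genes), 80 of 100 changes of 1 and 100 of 100 changes of 2 (log2) were recovered, with 14 false calls. In the real comparison 29.8% of genes were called, far more than were changed there, so these rates need not hold for the data. Nor do they give the chance of detecting a Tesc change, whose SE was 0.43. Intervals are 95%. Exact tests used scipy 1.17.1 in Python 3.11.15, and figures matplotlib 3.10.9. Named were both genes, preset partners and p53 genes, for the calcineurin, exchange, EF-hand, p53 and (tip minus stalk) hypoxia lists the up to 3 called genes per comparison with the smallest p, and of other lists counts only (2 genes this rule names are not reported here), and the 5 genes most alike. The genes, lists and tests were chosen with earlier results of these data known. The number of arrays limits the precision.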

Additional observations from a re-analysis of the deposited data

Results flagged for a closer look

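Neither Tesc nor Trp53i11 had a sample set far apart by the gap test in tip or stalk; nonvascular retina, with 3 arrays, was not tested. Of 122 sets of values, 8 held such a sample, and chance gives about 1 in 20. The 122 count the Pgk1 values again, and some lists share genes, so the sets are not all separate. In tip, Cdkn1a was -0.41 in replicate 6 against -0.07 to 0.06 on the other arrays, and Prodh was 0.46 in replicate 3 against 0.87 to 0.99. In stalk replicate 1, Ppp3ca was -0.36 against -0.13 to -0.10, Ppp3cb was 1.78 against 1.45 to 1.49, and the mean of the amacrine, horizontal and bipolar genes was 0.22 against 0.32 to 0.34. In stalk replicate 3, Nfatc4 was 0.20 against 0.06 to 0.08 and Prodh was 1.63 against 1.30 to 1.35. In stalk replicate 4, Esm1, a tip marker, was 2.25 against 1.59 to 1.65.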

How the results depend on the processing

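Each result was recomputed under 23 alternatives. Tip minus stalk kept its sign for both genes in all of them. For Tesc it was 1.53 with array brightness as a covariate; for Trp53i11 it was 1.99 with the Feature Extraction log ratios and with the deposited ratios, 1.90 with median centring and 1.91 with the red channel alone. Tip minus nonvascular for Trp53i11 was 1.61 with the red channel alone. Stalk minus nonvascular for Tesc turned to 0.015 with the deposited ratios and with the scanner software's log ratios (Feature Extraction), to 0.020 with the red channel alone, and to 0.23 with array brightness; leaving out 1 array gave -0.71 to 0.58, where only the loss of nonvascular replicate 3 turned it. The cause of these shifts was not tested.

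Genes called in tip minus stalk numbered 893 (471 higher, 422 lower). They numbered 252 with median centring (49 and 203), 225 with array brightness (77 and 148), 692 with the red channel alone (209 and 483) and 700 with the Feature Extraction log ratios (311 and 389). Leaving out 1 array gave 445 to 1607 calls: 445 without stalk replicate 1, 468 without stalk replicate 3, 528 and 547 without tip replicates 2 and 3, and 1607 without tip replicate 6. Tip minus nonvascular called 3571 higher and 5384 lower, and 2186 and 5600 with median centring.

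Same-numbered arrays did not deviate together from their group means (r from -0.144 to 0.0824). With so few arrays in each group this cannot show whether same-numbered samples share an animal or a batch. The sources used here do not say. With a replicate block the tip minus stalk differences were 1.94 for Tesc and 1.64 for Trp53i11, and 674 genes were called.

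Turned values of genes that were not called, or lost their call, in tip minus stalk were 0.025 for Nfatc4, -0.011 for Mdm2 and 0.128 for Cdh5 with the red channel alone, 0.012 for Chp1 and 0.089 for Cdh5 with all probes of a gene averaged, and 0.071 for Cdh5 with array brightness. Trp53 in stalk minus nonvascular was 0.235 with the red channel alone and 0.105 with probes averaged. With 1 probe for each gene, no other probe could be compared. The Trp53i11 spot was 2.48 to 3.41 times background in green on all arrays and 2.58 to 4.87 times in red on stalk arrays.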
